A study of Homo sapiens with 6 samples.

Results

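The genes described here are the enzymes that write and erase cytosine methylation in DNA, with their closest partners. The 10 members were taken by name and matched to Ensembl identifiers: DNMT1, DNMT3A, DNMT3B, DNMT3L, UHRF1, UHRF2, TET1, TET2, TET3 and TDG. They are 10 of the 62700 genes in the deposited gene table. No cut on a measured value picked them, but earlier results of these data were known when they were chosen. Polyadenylated RNA was sequenced from the established human cell line TCam-2, which derives from a testicular seminoma, in 3 groups of 2 libraries. The WT group was not transduced. The GFP group was transduced with GFP_FLAG, a tagged green fluorescent protein, and the RBMXL3 group with RBMXL3_FLAG, a tagged RNA-binding protein of the RBMX family. All groups share the cell line and medium. The promoter of the constructs, the number of clones and whether the 2 libraries of a group came from separate cultures are not given in the sources used here, so p-values measure the spread between these libraries, which may be technical.

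Cytosine methylation at CpG dinucleotides is placed on unmethylated DNA by the de novo enzymes and copied to the new strand after replication by the maintenance machinery. TET enzymes oxidise the methyl group, and the oxidised bases are lost at replication or cut out by TDG and base excision repair. Primordial germ cells pass through a phase of very low methylation, and seminoma resembles those cells in its low methylation and its germ cell transcription factors. Methylation itself was not measured in these libraries, which hold transcript levels only.

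RBMXL3 reads were 84 and 68 in the RBMXL3 libraries and 0 in all 4 control libraries, where a count of 0 allows up to 3 reads. Recovered depth was lower in RBMXL3 (17685680 and 21023355 reads) than in the controls (23080795 to 29318007 reads). All 9 seminoma markers passed the minimum value, with summed normalised counts between 117694 and 135131 in the 6 libraries. A list of 4 fibroblast genes summed to between 401 and 425 in WT, 724 and 728 in GFP and, in RBMXL3, 1319 and 1329. Of its members, COL3A1 ranged from 114 to 503, LUM from 65.4 to 425 and COL1A1 from 206 to 407 over the 6 libraries, and DCN was at most 1.69. A leukocyte list of 4 genes summed to between 29.6 and 34.4 in WT, 37.9 and 43.4 in GFP and, in RBMXL3, 74.7 and 75.9, with CD3E at 0 and PTPRC at or below 1.06. The sums of the 4 genes each for embryonal carcinoma (180 to 197 in RBMXL3, 93.1 to 143 in the controls), yolk sac or trophoblast (282 to 348, against 166 to 251) and Sertoli or Leydig cells (281 to 304, against 167 to 226) were also highest in RBMXL3, with AFP and CYP17A1 at 0. These sums and the depth also differ between the groups compared, and their part in the results was not tested. In bulk RNA, fewer cells of a type and less RNA per cell cannot be told apart.

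All 10 members passed the minimum value in every comparison, with 350 to 5437 recovered reads per library. TET2 fell in RBMXL3 cells against WT, and DNMT3B rose against WT. DNMT3L differed in all 3 comparisons, with the highest level in GFP and the lowest in WT. A gene was called where limma gave a p under 0.05 after Benjamini-Hochberg adjustment. Against GFP, 1 of the 10 members was called (DNMT3L, lower), beside 20.9% of all 14292 genes tested (10.5% higher, 10.4% lower). Against WT, 4 of 10 were called, DNMT3B and DNMT3L higher and TET2 and TDG lower, beside 29.9% of all genes (14.6% higher, 15.3% lower). Between the controls, 2 of 10 were called in GFP against WT, DNMT3L higher and TET3 lower, beside 3.67% of all genes (1.76% higher, 1.91% lower). At an unadjusted p under 0.05 these counts were 3, 5 and 5 of 10, beside 34.7%, 41.7% and 22.3% of all genes. No member was called in the same direction against both controls, a state reached by 13.7% of all genes. The 3 comparisons share their groups in pairs, so their counts are not independent of one another. With no filter on low values TET2 against WT was the 1 call that remained in the 3 comparisons. Of all 30989 genes then tested, 950 were called against GFP, 2327 against WT and 0 in GFP against WT. With summed transcript TPM in place of gene counts, the calls were UHRF1 and DNMT3A higher against GFP and DNMT3L higher against WT. Of all 14296 genes in that test, 989, 1644 and 0 were called in the same order.

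The median log2 change of the members was 0.09 against GFP, 0.01 against WT and -0.08 for GFP against WT. The same medians over all genes tested were 0.00087, -0.01 and -0.0078. Both RBMXL3 libraries lay outside all 4 controls in 2 of 10 members, TET1 (above) and TET2 (below), beside 46.1% of all genes. Both WT libraries lay outside all 4 transduced libraries in 5 of 10 members, DNMT3B, DNMT3L, TET2, TET3 and TDG, beside 31.1% of all genes. The plot of normalised counts by library shows both patterns.

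**Figure D1:**
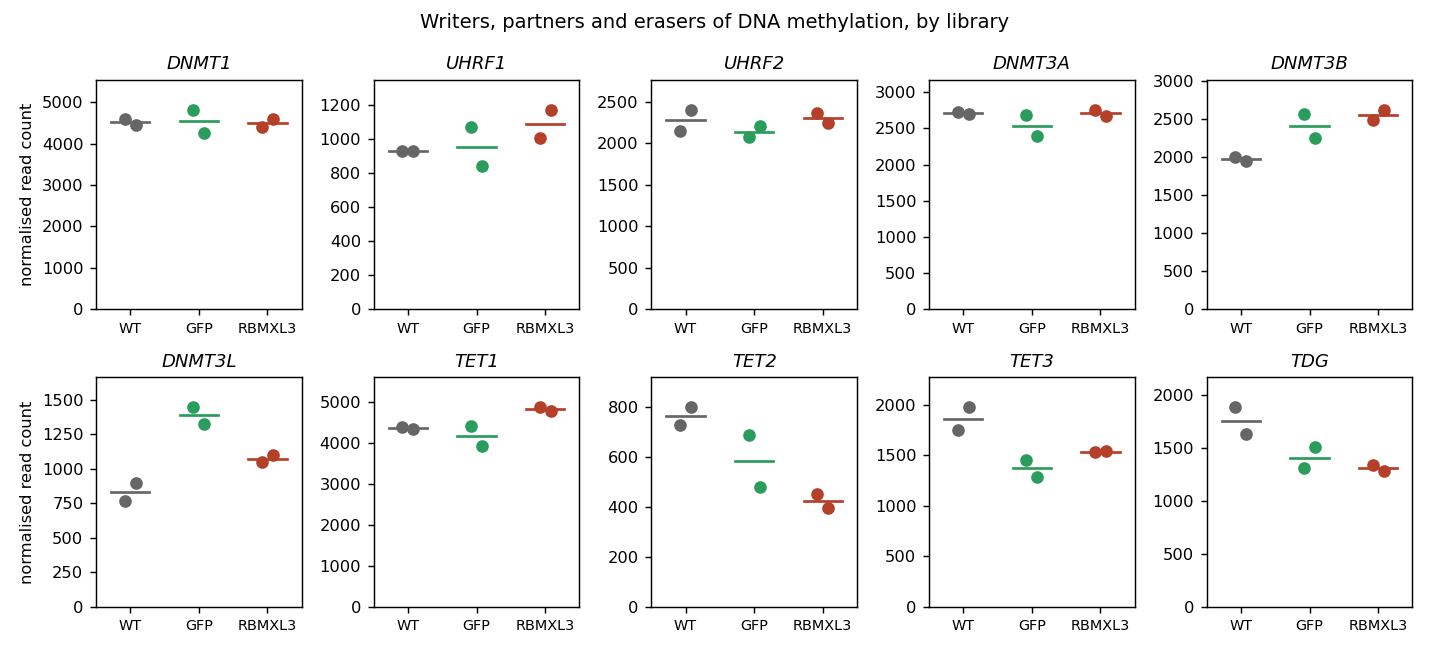
Normalised read counts (vertical axes, each starting at 0) of the 10 genes in WT, GFP and RBMXL3 cells; each point is 1 library and each line the mean of the 2 libraries. The RBMXL3 points of TET2, at 451 and 396, lie below all 4 controls, those of TET1, at 4867 and 4776, lie above them, and DNMT3L has 3 separate levels.

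**Figure D2:**
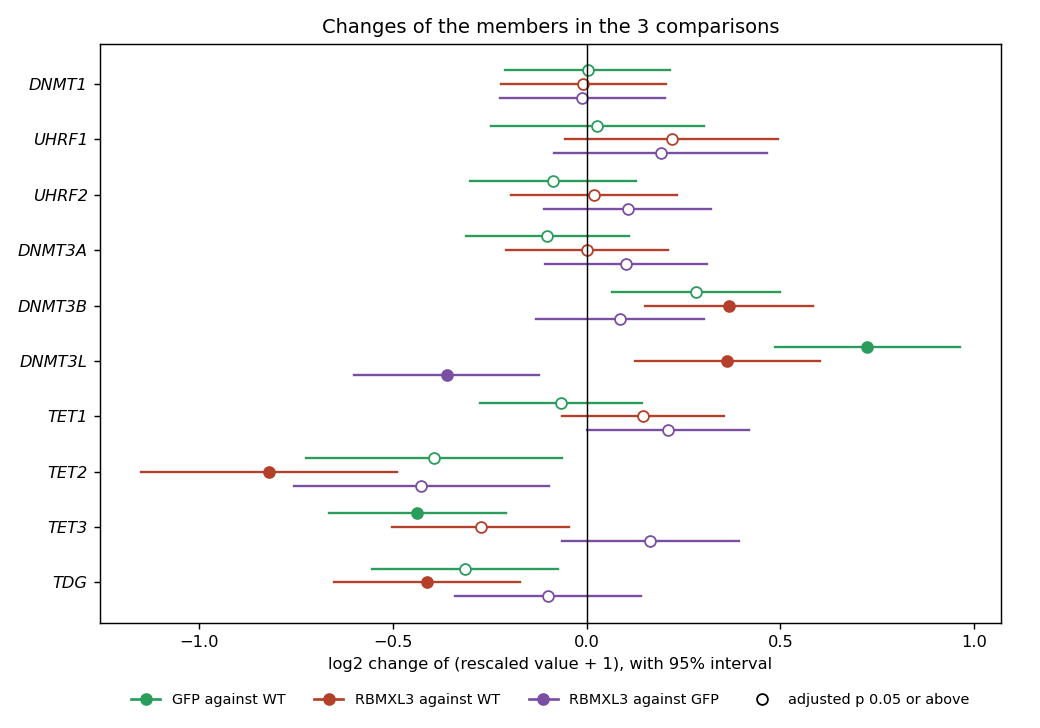
Log2 change of each gene (horizontal axis, on the scale of the rescaled value plus 1) with its 95% interval, for GFP against WT, RBMXL3 against WT and RBMXL3 against GFP; filled points have an adjusted p under 0.05 by limma. TET2 against WT has the lowest value, -0.82, and DNMT3L is filled in all 3 comparisons with opposite signs.

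DNMT1, the maintenance methyltransferase (ENSG00000130816.17; chromosome 19, 10133345 to 10231286, minus strand, GENCODE 29 on GRCh38), had near-equal gene-level counts in the groups. Its normalised counts were 4603 and 4462 in WT, 4826 and 4271 in GFP and, in RBMXL3, 4408 and 4605. The GFP libraries spanned the values of all the others, so the groups overlapped. The log2 change in RBMXL3 was -0.011 against GFP (95% interval -0.22 to 0.20, limma adjusted p = 0.952) and -0.0085 against WT (-0.22 to 0.20, adjusted p = 0.958). The sign of these small values depends on the setting, and no alternative called DNMT1.

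Of the DNMT1 transcripts, 3 reached a mean share of 10% of the gene's TPM in at least 1 group. DNMT1-201 and DNMT1-202 code for 1616 and 1632 codons. DNMT1-202 had a share of 37.7% and 26.3% in WT, 32.5% and 26.1% in GFP and, in RBMXL3, 47.3% and 38.1%. Both RBMXL3 libraries had a higher share than all 4 controls, and this transcript was not called in usage. DNMT1-201 was listed at 0 in GFP replicate 1 and held 32.7% to 50.1% in the other 5 libraries. DNMT1-208, of the nonsense-mediated decay type, held 14.2% and 25.2% in WT, 56.0% and 23.0% in GFP and, in RBMXL3, 8.64% and 0%. Its adjusted p in usage against GFP was 0.0734 by limma's diffSplice. With GFP replicate 2 left out, DNMT1-208 (adjusted p = 0.00877) and DNMT1-201 (0.00563) were both called against GFP, and with GFP replicate 1 left out neither was (0.117 and 0.985).

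UHRF1, which reads hemimethylated CpG sites and recruits DNMT1 to them (ENSG00000276043.5; chromosome 19, 4903080 to 4962154, plus strand), showed a difference between the gene and the transcript table. Its normalised counts were 929 and 928 in WT, 1070 and 837 in GFP and, in RBMXL3, 1006 and 1170. GFP replicate 1 lay between the RBMXL3 libraries, so the groups overlapped at gene level. The log2 change in RBMXL3 was 0.19 against GFP (adjusted p = 0.306) and 0.22 against WT (adjusted p = 0.209). With GFP replicate 1 left out, UHRF1 passed against GFP (log2 change 0.36, adjusted p = 0.0289), and with GFP replicate 2 left out the change was 0.019 (0.912).

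In the transcript table, the summed TPM of the annotated UHRF1 transcripts was 7.64 and 4.60 in WT, 2.27 and 1.21 in GFP and, in RBMXL3, 11.6 and 12.3. All 3 groups were separate on that scale, RBMXL3 highest and GFP lowest. Summed TPM gave a log2 change against GFP of 2.27 (adjusted p = 0.0172 by limma), against 0.19 from the gene counts. The normalised count per unit of TPM ranged from 86.6 to 691 for UHRF1, a 7.98-fold range, and by 1.14-fold to 1.88-fold for the other 9 members. Summed TPM covers GENCODE 29 transcripts only, which were 80.0% of the transcripts in the file, and whether the others include UHRF1 forms was not tested.

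The UHRF1 values moved between annotated transcripts. UHRF1-207 and UHRF1-203 both code for 793 codons and begin 648 bases apart. They also differ at the 3' end, where the last exon of UHRF1-207 holds 1190 bases absent from UHRF1-203. UHRF1-207 held 75.8% and 54.3% of UHRF1 TPM in WT, 0% and 0% in GFP and, in RBMXL3, 95.2% and 98.7%. It was the leading form in the WT and RBMXL3 libraries and was listed at 0 in both GFP libraries. UHRF1-203 held 17.9% and 34.0% in WT, 33.2% and 100% in GFP and, in RBMXL3, 4.76% and 1.29%. Its RBMXL3 shares lay below those of all 4 controls. The TPM of UHRF1-203 was low, at 1.37 and 1.56 in WT, 0.755 and 1.21 in GFP and, in RBMXL3, 0.553 and 0.158. It was thus not higher in GFP than in WT, also where its share was. UHRF1-205, a form of 857 codons, held 66.8% in GFP replicate 1, 6.28% and 11.7% in WT, and 0% in the remaining 3 libraries.

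Transcript usage compares each transcript with the others of its gene. Of the 95 member transcripts, 28 of 7 genes could be tested. In RBMXL3 against GFP, 2 of 28 were called by diffSplice, UHRF1-207 higher and UHRF1-203 lower, beside 4.45% of all transcripts tested. The usage change was 4.21 on the log2 scale for UHRF1-207 and -4.21 for UHRF1-203 (adjusted p = 0.00108 each), mirror images because only these 2 UHRF1 transcripts entered the test. In RBMXL3 against WT, the same 2 of 28 were called, at 2.25 and -2.25 (adjusted p = 0.0329), beside 4.16% of all transcripts. With a mean TPM of at least 5 required, which UHRF1-203 does not reach, 0 member transcripts were called against GFP or WT. Of all 10827 transcripts then tested, 1176 and 1115 were called. In GFP against WT, 0 of 28 were called by the main test, beside 0.445% of all transcripts. The UHRF1 pair had an unadjusted p of 0.00272 there, and the test of shares called 0 of the members' transcripts, beside 0.0802% of all. With limma on transcript shares, which called 0.821% of all transcripts in each comparison of RBMXL3, UHRF1-207 was called against GFP (adjusted p = 0.0223) and UHRF1-203 was not (0.351), and neither was called against WT (0.165 and 0.736). The call against WT was lost without WT replicate 2 (adjusted p = 0.149), GFP replicate 1 (0.0506), GFP replicate 2 (0.0534), RBMXL3 replicate 1 (0.164) or RBMXL3 replicate 2 (0.276), while the call against GFP stayed below 0.05 without any 1 library.

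The 2 starts are shown because the transcripts called in usage begin there. These transcripts also differ in their last exon, and whether the usage calls reflect the start or the 3' end was not tested. The sequences are the bases before each start in the RefSeq promoter table (GRCh38.p14, plus strand), with capitals marking CG dinucleotides:
UHRF1-207: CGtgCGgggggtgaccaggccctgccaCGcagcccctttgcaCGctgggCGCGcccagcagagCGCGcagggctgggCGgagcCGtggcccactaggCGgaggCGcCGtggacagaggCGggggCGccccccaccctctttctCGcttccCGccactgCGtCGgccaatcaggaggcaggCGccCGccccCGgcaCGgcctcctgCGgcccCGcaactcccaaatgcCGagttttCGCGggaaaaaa
UHRF1-203: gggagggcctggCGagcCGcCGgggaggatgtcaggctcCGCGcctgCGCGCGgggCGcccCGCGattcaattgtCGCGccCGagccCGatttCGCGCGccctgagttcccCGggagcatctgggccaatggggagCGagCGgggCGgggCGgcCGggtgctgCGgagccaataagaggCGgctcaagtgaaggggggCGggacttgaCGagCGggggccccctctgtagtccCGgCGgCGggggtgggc
The UHRF1-207 window (chr19:4909251-4909497) holds 28 CpG sites in 247 bases, and the UHRF1-203 window (chr19:4909894-4910143) holds 32 in 250 bases. The median over the 35116 promoters in the table was 11 per 250 bases. Of 4 motifs searched on both strands, CCAAT was found in both windows and in 32.0% of all promoters. TTTCGCGC (0.439% of promoters) and GGGCGGGG (21.8%) were found in the UHRF1-203 window alone, TTTGGCGC (0.550%) in neither, and no match overlapped another. Other forms of these motifs were not searched. A match describes the letters only, and no binding was measured.

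**Figure D3:**
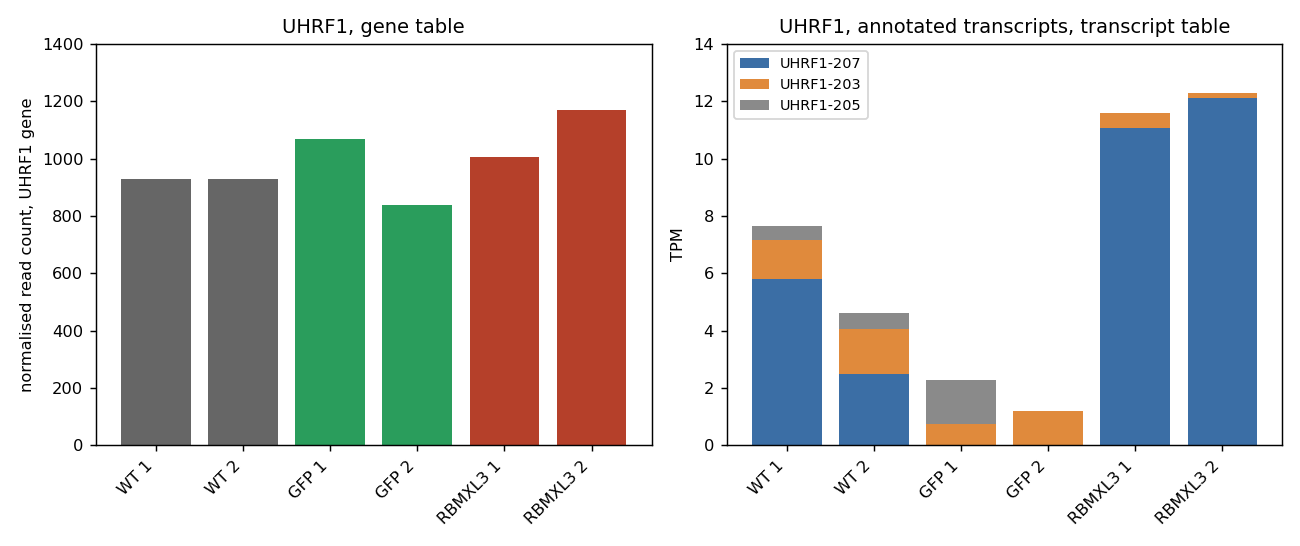
UHRF1 in the 6 libraries: normalised read count of the gene (left, bars from 0) and TPM of 3 annotated transcripts stacked (right, bars from 0), with no error bars because each bar is 1 library. Gene counts stay between 837 and 1170, while the stacked TPM runs from 1.21 in GFP replicate 2 to 12.3 in RBMXL3 replicate 2, where UHRF1-207 makes up nearly the whole bar.

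UHRF2, a paralogue of UHRF1 (ENSG00000147854.17; chromosome 9, 6413151 to 6507054, plus strand), had normalised counts of 2151 and 2409 in WT, 2078 and 2208 in GFP and, in RBMXL3, 2364 and 2251. The RBMXL3 libraries lay above both GFP libraries and inside the WT range. The log2 change in RBMXL3 was 0.11 against GFP (95% interval -0.11 to 0.32, adjusted p = 0.482) and 0.02 against WT (-0.20 to 0.23, adjusted p = 0.903). Its coding form UHRF2-201 held between 49.6% and 70.0% of the gene's TPM. The noncoding forms UHRF2-211 and UHRF2-212 held 7.24% to 13.8% and 7.70% to 14.7%. In RBMXL3, UHRF2-201 held 49.6% and 58.3%, below all 4 controls (59.3% or more). UHRF2-211 held 13.8% and 13.6% there, above all 4 controls (11.4% or less). UHRF2-212 held 11.2% and 14.7%, with the controls at 11.1% or less. None of these forms was called in usage.

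DNMT3A, a de novo methyltransferase (ENSG00000119772.19; chromosome 2, 25227855 to 25342590, minus strand), had normalised counts of 2734 and 2700 in WT, 2681 and 2390 in GFP and, in RBMXL3, 2760 and 2678. GFP replicate 2 was the lowest library and the other 5 lay close together. The log2 change in RBMXL3 was 0.10 against GFP (95% interval -0.11 to 0.31, adjusted p = 0.487) and 0.0010 against WT (-0.21 to 0.21, adjusted p = 0.995). Summed TPM gave a larger value against GFP, 0.67 (adjusted p = 0.0329).

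Most DNMT3A transcript abundance came from a start inside the gene. DNMT3A-203, a form of 723 codons that lacks the N-terminal part of the full-length enzyme, held between 67.1% and 76.4% of DNMT3A TPM in the 6 libraries. Coding transcripts from that start or below it made up between 87.2% and 91.3% of coding TPM. The forms that begin further upstream made up 12.7% and 12.3% in WT, 12.7% and 12.8% in GFP and, in RBMXL3, 8.74% and 10.6%. Both RBMXL3 libraries lay below all 4 controls. DNMT3A-202, the full-length form of 912 codons, was singled out after its values were seen. It held 9.37% and 7.25% in WT, 8.70% and 8.59% in GFP and, in RBMXL3, 1.29% and 6.96%, and its usage was not called against GFP (adjusted p = 0.224) or WT (adjusted p = 0.397). The starts of DNMT3A-203 and DNMT3A-202 lie 89574 bases apart, and the bases before each are shown because they separate the short form from the full-length one (RefSeq, GRCh38.p14, minus strand, capitals marking CG):
DNMT3A-203: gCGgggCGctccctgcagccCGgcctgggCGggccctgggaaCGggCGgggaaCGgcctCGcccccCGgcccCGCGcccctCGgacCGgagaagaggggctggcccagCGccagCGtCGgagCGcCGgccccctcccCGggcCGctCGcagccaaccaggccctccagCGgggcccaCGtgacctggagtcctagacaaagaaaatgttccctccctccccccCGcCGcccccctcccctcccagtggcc
DNMT3A-202: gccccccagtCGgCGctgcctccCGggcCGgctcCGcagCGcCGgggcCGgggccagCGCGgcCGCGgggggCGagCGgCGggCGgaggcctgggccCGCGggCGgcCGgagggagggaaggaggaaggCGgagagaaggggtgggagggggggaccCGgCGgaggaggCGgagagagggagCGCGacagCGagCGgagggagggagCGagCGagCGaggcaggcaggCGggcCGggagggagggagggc
The window before DNMT3A-203 (chr2:25252316-25252565) holds 25 CpG sites and that before DNMT3A-202 (chr2:25341926-25342175) holds 33, both above the promoter median of 11.

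DNMT3B, the other catalytic de novo methyltransferase (ENSG00000088305.19; chromosome 20, 32762385 to 32809356, plus strand), was lowest in WT. The normalised counts were 2000 and 1943 in WT, 2567 and 2248 in GFP and, in RBMXL3, 2484 and 2623. Both WT libraries lay below all 4 transduced libraries, and the GFP and RBMXL3 libraries overlapped. DNMT3B rose in RBMXL3 against WT by 0.37 on the log2 scale (SE 0.10, adjusted p = 0.0158), from a mean of 1971 ± 40.2 to 2553 ± 98.7 (SD, n = 2). The change was 0.09 against GFP (adjusted p = 0.577) and 0.28 for GFP against WT (adjusted p = 0.126). The call against WT was lost without WT replicate 1 (adjusted p = 0.0818), WT replicate 2 (0.0855), RBMXL3 replicate 1 (0.0999) or RBMXL3 replicate 2 (0.195), and GFP against WT passed without GFP replicate 2 (log2 change 0.38, adjusted p = 0.0108) and was 0.19 without GFP replicate 1 (0.181). DNMT3B-202, the form of 853 codons, held between 92.8% and 97.3% of DNMT3B TPM.

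DNMT3L, a cofactor without methyltransferase activity that stimulates DNMT3A and DNMT3B in germ cells (ENSG00000142182.9; chromosome 21, 44246339 to 44262216, minus strand), had a level of its own in each group. Its normalised counts were 765 and 896 in WT, 1444 and 1326 in GFP and, in RBMXL3, 1047 and 1098. No 2 groups overlapped, and RBMXL3 lay between the controls. DNMT3L rose in GFP against WT by 0.72 on the log2 scale (SE 0.11, adjusted p = 0.0110), a ratio of means of 1.67. It rose in RBMXL3 against WT by 0.36 (SE 0.11, adjusted p = 0.0261) and fell in RBMXL3 against GFP by 0.36 (SE 0.11, adjusted p = 0.0353). The direction in RBMXL3 thus differed between the 2 controls, which themselves differed from each other.

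Summed TPM gave -0.10 for DNMT3L against GFP (adjusted p = 0.594 by limma). Leaving out 1 library kept the direction of each change. The log2 change was then -0.42 to -0.30 against GFP and 0.25 to 0.47 in RBMXL3 against WT. For GFP against WT it was 0.61 to 0.84. Each such fit leaves 1 library in a group, and some calls were lost. The call against GFP was lost without GFP replicate 1 (adjusted p = 0.0629), RBMXL3 replicate 1 (0.264) or RBMXL3 replicate 2 (0.186). The call of RBMXL3 against WT was lost without WT replicate 1 (0.213), RBMXL3 replicate 1 (0.127) or RBMXL3 replicate 2 (0.219), and that of GFP against WT without WT replicate 1 (0.135) or WT replicate 2 (0.0570). The antisense gene AP001059.1 overlaps 13% of the exon length of DNMT3L, and whether counting used strand is not given in the sources used here, so reads of the overlap cannot be assigned to either gene. DNMT3L-204, DNMT3L-201 and DNMT3L-202 kept shares of 56.7% to 61.0%, 22.3% to 26.4% and 15.4% to 18.1% of its TPM across libraries. Among 10744 genes searched, the 6-library profiles nearest to that of DNMT3L were those of TCL1A and DEF6, with root mean square differences of 0.07 and 0.08 on the log2 scale. TCL1A had 196 and 241 normalised counts in WT, 393 and 374 in GFP and, in RBMXL3, 317 and 279.

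TET1, a TET enzyme with a CXXC domain that binds unmethylated CpG (ENSG00000138336.9; chromosome 10, 68560656 to 68694482, plus strand), had normalised counts of 4388 and 4328 in WT, 4412 and 3930 in GFP and, in RBMXL3, 4867 and 4776. Both RBMXL3 libraries lay above all 4 controls. The log2 change was 0.21 against GFP (95% interval 0.0013 to 0.42, adjusted p = 0.141) and 0.14 against WT (-0.06 to 0.35, adjusted p = 0.274). With GFP replicate 1 left out, TET1 passed against GFP (log2 change 0.29, adjusted p = 0.0172), and with GFP replicate 2 left out the change was 0.13 (0.227). TET1-201, of 2136 codons, was its 1 annotated transcript.

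TET2, which lacks a CXXC domain of its own (ENSG00000168769.14; chromosome 4, 105145875 to 105279816, plus strand), had the largest called change of the members. Its normalised counts were 729 and 800 in WT, 689 and 480 in GFP and, in RBMXL3, 451 and 396. Both RBMXL3 libraries lay below all 4 controls, and the 2 GFP libraries differed more from each other than those of either other group. TET2 fell in RBMXL3 against WT by 0.82 on the log2 scale (SE 0.15, 95% interval -1.15 to -0.49, adjusted p = 0.00211), from 764 ± 49.9 to 423 ± 38.9 (SD, n = 2), a ratio of 0.554. It was called in 14 of 15 alternatives, with summed TPM the exception (log2 change -0.62, adjusted p = 0.0825), and the adjusted p over the alternatives ran from 6.25e-05 to 0.0825. Against GFP the log2 change was -0.43 (SE 0.15, 95% interval -0.76 to -0.10, adjusted p = 0.0645), with -0.68 when GFP replicate 2 was left out (adjusted p = 0.00180) and -0.18 when GFP replicate 1 was (0.314). In summed TPM the change against GFP was -0.21, and GFP replicate 2, at 2.86, lay below RBMXL3 replicate 1, at 3.05. GFP against WT gave -0.39 (adjusted p = 0.154), with -0.64 when GFP replicate 1 was left out (0.0121) and -0.14 when GFP replicate 2 was (0.423).

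TET2-203, a form of 2002 codons, held between 85.1% and 98.0% of TET2 TPM in the 6 libraries, so 1 form carried most of the signal in every group. The bases before its start are shown because TET2 had the largest called change (chr4:105146626-105146785, plus strand, RefSeq GRCh38.p14, capitals marking CG):
TET2-203: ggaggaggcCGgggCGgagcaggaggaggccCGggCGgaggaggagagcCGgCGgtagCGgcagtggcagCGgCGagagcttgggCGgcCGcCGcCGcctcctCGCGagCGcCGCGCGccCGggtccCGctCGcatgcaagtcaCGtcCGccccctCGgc
This window holds 25 CpG sites in 160 bases.

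TET3, the TET enzyme best known from the oocyte and zygote (ENSG00000187605.16; chromosome 2, 73986404 to 74108176, plus strand), was highest in WT. The libraries had normalised counts of 1753 and 1976 in WT, 1458 and 1284 in GFP and, in RBMXL3, 1532 and 1541. Both WT libraries lay above all 4 transduced libraries, and the RBMXL3 libraries lay above both GFP libraries. TET3 fell in GFP against WT by 0.44 on the log2 scale (SE 0.11, adjusted p = 0.0430), a ratio of 0.735. By edgeR on the recovered reads the adjusted p was 0.0501, and after quantile normalisation 0.0656. In RBMXL3 the change was -0.27 against WT (adjusted p = 0.0682) and 0.16 against GFP (adjusted p = 0.291). The call in GFP against WT was lost without WT replicate 1 (adjusted p = 0.180), WT replicate 2 (0.207), RBMXL3 replicate 1 (0.107) or RBMXL3 replicate 2 (0.106), and RBMXL3 against WT passed without GFP replicate 1 (0.0137) or GFP replicate 2 (0.0135) and was not called without any other library (0.101 to 0.320). TET3-202, of 1795 codons, held at least 97.2% of TET3 TPM in every library.

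Levels can be compared between the TET genes per transcript length, in summed TPM. TET1 made up 67.5% and 64.5% of TET TPM in WT, 72.0% and 72.6% in GFP and, in RBMXL3, 74.1% and 74.0%. TET2 made up 11.6% and 12.2% in WT, 10.9% and 9.07% in GFP and, in RBMXL3, 7.20% and 6.46%. The TET1 shares were lowest in WT and highest in RBMXL3, the TET2 shares had the opposite order, and in neither did any 2 groups overlap. These shares were not tested. TET3 made up 20.9% and 23.3% in WT, 17.1% and 18.3% in GFP and, in RBMXL3, 18.7% and 19.5%. The TPM ratio of TET1 to TET2 was 5.84 and 5.27 in WT, 6.58 and 8.0 in GFP and, in RBMXL3, 10.3 and 11.5.

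**Figure D4:**
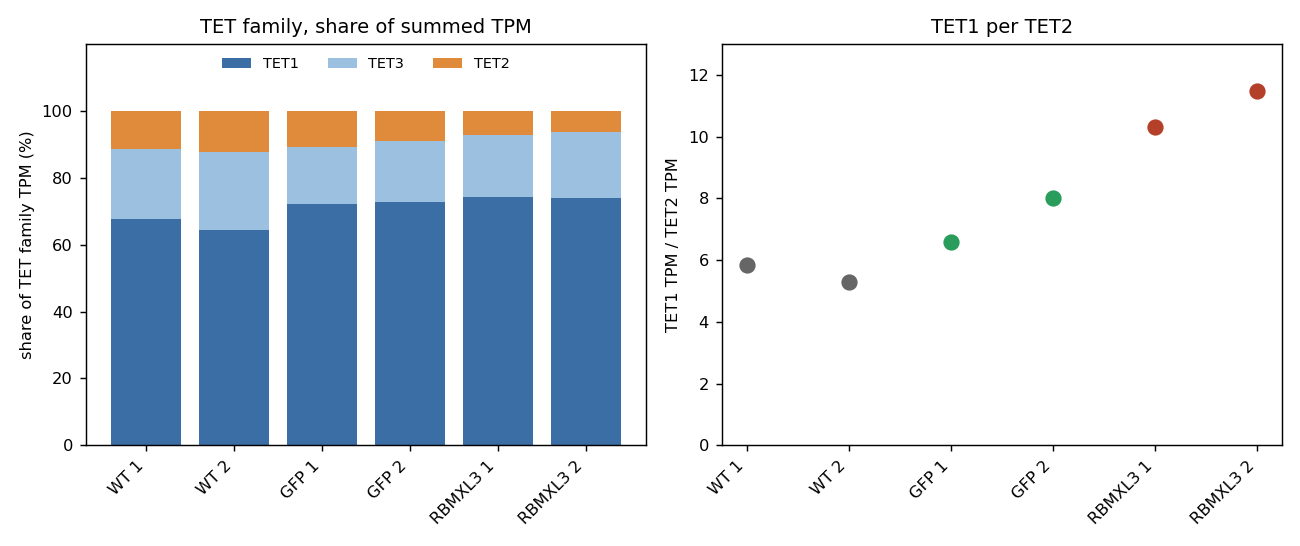
Share of each TET gene in the summed TPM of the family (left, % of TET TPM, 1 stacked bar per library) and the ratio of TET1 TPM to TET2 TPM (right, 1 point per library, axis from 0). The TET2 share is 6.46% and 7.20% in the RBMXL3 libraries and at least 9.07% in the controls, and the ratio is lowest in WT replicate 2, at 5.27, and highest in RBMXL3 replicate 2, at 11.5.

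TDG, the glycosylase that excises the oxidised bases made by TET enzymes (ENSG00000139372.15; chromosome 12, 103965804 to 103988874, plus strand), was highest in WT. The libraries had normalised counts of 1885 and 1630 in WT, 1308 and 1511 in GFP and, in RBMXL3, 1340 and 1282. Both WT libraries lay above all 4 transduced libraries, and GFP and RBMXL3 overlapped. TDG fell in RBMXL3 against WT by 0.41 on the log2 scale (SE 0.11, adjusted p = 0.0151), a ratio of 0.746. The change was -0.10 against GFP (adjusted p = 0.564) and -0.31 for GFP against WT (adjusted p = 0.125). The call against WT was lost without WT replicate 1 (adjusted p = 0.157), RBMXL3 replicate 1 (0.0865) or RBMXL3 replicate 2 (0.150), and GFP against WT passed without GFP replicate 2 (log2 change -0.42, adjusted p = 0.0167) and was -0.21 without GFP replicate 1 (0.215). TDG-202, of 410 codons, held between 86.2% and 94.4% of TDG TPM.

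Per transcript length, DNMT1 had the highest summed TPM of the members in WT, at 50.1 ± 2.7 (SD, n = 2), followed by TDG at 46.2 ± 1.58, DNMT3L at 45.9 ± 5.05 and UHRF2 at 44.4 ± 3.51. The libraries of DNMT1 and DNMT3L overlapped, as did those of TDG, DNMT3L and UHRF2. DNMT3A followed at 34.0 ± 3.94, TET1 at 27.7 ± 0.357 and DNMT3B at 23.9 ± 0.229, each in a range of its own. TET3 (9.32 ± 1.14), UHRF1 (6.12 ± 2.15) and TET2 (5.00 ± 0.427) were lowest, and the ranges of UHRF1 and TET2 overlapped. The place of UHRF1 is uncertain, because its summed TPM and its gene counts differed between libraries as given above. In normalised counts, which are not per length, UHRF1 in WT (929 and 928) lay above DNMT3L (765 and 896). DNMT3L was first in GFP (66.9 ± 0.571) and in RBMXL3 (62.6 ± 3.24). The TPM of DNMT3L per unit of DNMT3A was 1.36 and 1.34 in WT, 2.26 and 2.47 in GFP and, in RBMXL3, 1.24 and 1.51, so the GFP libraries stood above all others in that ratio. In normalised counts the ratio was 0.280 and 0.332 in WT, 0.539 and 0.555 in GFP and, in RBMXL3, 0.379 and 0.410. GFP was highest there too, and RBMXL3 lay above WT.

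Genes that act with the members were taken from lists by function. Of 20 partners of the methylation machinery, 19 were tested, and 1 was called higher and 1 lower against both controls, beside 6.88% and 6.86% of all genes. CDCA7, which works with the remodeler HELLS, had 1251 and 1222 normalised counts in WT, 1075 and 1212 in GFP and, in RBMXL3, 1652 and 1698. It rose by 0.54 against GFP (adjusted p = 0.00340) and by 0.43 against WT (0.00775), with both RBMXL3 libraries above all controls. PCNA, the replication clamp, fell by 0.56 against GFP (adjusted p = 0.00219) and by 0.32 against WT (0.0220). Against GFP no other partner was called. Against WT 6 partners were lower, beside 15.3% of all genes. Besides PCNA these were CDCA7L, USP7, NSD1, SETD2 and SMCHD1, named after their values were seen. SMCHD1 was also lower in GFP against WT, at -0.48 (limma adjusted p = 0.0297), beside -0.36 in RBMXL3 against WT. The median log2 change of the list was -0.06 against GFP and 0.0057 against WT.

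Of 10 readers of methylated DNA and their relatives, all tested, 2 were higher and 0 lower against both controls. The shares of all genes were 6.88% higher and 6.86% lower. MBD6 had 1102 and 980 normalised counts in WT, 938 and 919 in GFP and, in RBMXL3, 1566 and 1555, and it rose by 0.73 against GFP (adjusted p = 0.000803) and 0.58 against WT (0.00161). MBD3, a subunit of the NuRD complex, rose by 0.37 against GFP (adjusted p = 0.0180) and 0.42 against WT (0.00667). The list medians were 0.13 and -0.03. Both genes had separate RBMXL3 and control values.

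Of 17 genes of base excision repair and demethylation, all tested, 1 was higher and 0 lower against both controls, beside 6.88% and 6.86% of all genes. GADD45B, a stress-induced gene linked to DNA demethylation, had 260 and 264 normalised counts in WT, 244 and 283 in GFP and, in RBMXL3, 483 and 428. It rose by 0.74 against GFP (adjusted p = 0.00265) and by 0.74 against WT (0.00149). Against GFP no other gene of the list was called. Against WT 3 were higher and 0 lower, beside 14.6% and 15.3% of all genes. The others were GADD45G at 0.86 and the glycosylase NTHL1 at 0.64, named after their values were seen. The list medians were -0.04 and 0.11.

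Of 12 TET cofactors and regulators, all tested, 1 was higher and 1 lower against both controls, beside 6.88% and 6.86% of all genes. CXXC5, a CXXC protein reported to act on TET2, had 273 and 285 normalised counts in WT, 304 and 346 in GFP and, in RBMXL3, 448 and 463, and it rose by 0.46 against GFP (adjusted p = 0.0206) and by 0.66 against WT (0.00213). DCAF1, a substrate adaptor of an E3 ubiquitin ligase, fell by 0.45 against GFP (adjusted p = 0.0271) and by 0.44 against WT (0.0215). Against GFP, CXXC4 was also higher, at 0.72. Against WT, 3 of the list were higher and 4 lower, beside 14.6% and 15.3% of all genes. The others were IDH2 and D2HGDH (higher) and IDH3A, PROSER1 and QSER1 (lower). CXXC4 and these 5 were named after their values were seen. QSER1 was also lower in GFP against WT, at -0.56 (limma adjusted p = 0.0147), beside -0.43 in RBMXL3 against WT. The list medians were -0.04 and -0.10.

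Of 18 genes of methyl donor supply, 14 were tested, and 1 was higher and 2 lower against both controls, beside 6.88% and 6.86% of all genes. MAT2A, which makes S-adenosylmethionine, had 8177 and 8337 normalised counts in WT, 7912 and 7561 in GFP and, in RBMXL3, 5863 and 5756, and it fell by 0.41 against GFP (adjusted p = 0.00976) and by 0.51 against WT (0.00204). MTHFD1, a cytosolic folate enzyme, fell by 0.43 against GFP (adjusted p = 0.0131) and by 0.35 against WT (0.0224). MTHFD2, its mitochondrial counterpart, rose by 0.39 against GFP (adjusted p = 0.0146) and by 0.62 against WT (0.000813). Against GFP, 1 of the 14 was higher and 4 were lower, beside 10.5% and 10.4% of all genes, and AHCY and TYMS were among the lower. Against WT, where 14.6% of all genes were higher and 15.3% lower, SHMT2 was also higher and MTR lower. AHCY, TYMS, SHMT2 and MTR were named after their values were seen. SHMT2 was higher in GFP against WT too, at 0.45 (limma adjusted p = 0.0350), beside 0.71 in RBMXL3 against WT. The list medians were -0.08 and -0.08.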

How the data were processed

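Polyadenylated RNA of TCam-2 cells was measured in 6 libraries, 2 each of WT, GFP and RBMXL3, prepared with a stranded mRNA kit per the labels' protocols. Per the submitters' processing notes, Trim Galore 0.6.10, STAR 2.7.11a, DESeq2 and Salmon 1.10.2 were used with GRCh38. The read counter, the annotation and the strand setting of counting are not given in the sources used here. The deposited gene table holds a normalised signal: the authors divided read counts by 1 size factor per library. It is named for CPM, which its column totals are not. All 145320 nonzero values (100%) came out as whole reads within 0.001, giving 17685680 to 29318007 reads per library. The other deposited table gives TPM per transcript from the authors' Salmon run, a unit that keeps no depth. The number of unmapped columns was 0.

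The gene values were divided by 1 common factor, 23.9, because the planned test assumed CPM. Of 62700 genes, 14292 reached a rescaled value of 1 or more in 2 or more libraries and were tested. One limma model (version 3.58.1 in R 4.3.3) with an intensity trend was fitted to log2(value + 1) over the 6 libraries, two-sided, with Benjamini-Hochberg adjustment over all genes tested and a threshold of 0.05. Changes are on that log2 scale, which understates changes of low genes. Normalised counts printed are the deposited values. Transcripts were assigned to genes with GENCODE 29 (80.0% of transcripts, 94.7% to 95.1% of TPM), and diffSplice of limma on log2(TPM + 1) gave the usage test, with limma on transcript shares as an alternative. Other alternatives were edgeR 4.0.16 and DESeq2 1.42.0 on the recovered reads, quantile normalisation, pseudocounts, filters, summed TPM, a replicate block and leaving out each library. The scripts were tested on simulated data. Libraries of a group differed by more than sampling noise (chi-square per gene 2.81 to 31.6, where 1 is sampling noise), so none was counted as a duplicate. Floors of 3 reads cover counting error only. Promoter sequences are from RefSeq (GRCh38.p14), where 9 of the 10 members had an entry.

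The members, the gene lists and the rule for named genes were chosen with earlier results of these data known. The rule took all 10 members, RBMXL3, up to 4 genes of each list that were called alike against GFP and WT, the 2 nearest profiles of any member called against both controls, and transcripts with a mean share of at least 10% in a group. One gene of a list and one sequence are not reported here.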

Additional observations from a re-analysis of the deposited data

How the results depend on the processing

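Over 15 alternatives for each of the 10 members in 3 comparisons, 381 of 450 values kept their direction and their side of the threshold, 35 lost and 13 gained the call, and 21 reversed; all reversals were of values not called. The replicate numbers did not pair the libraries (correlations of replicate deviations -0.156, 0.0337 and -0.0941), and with the replicate block 0, 4 and 1 members were called against GFP, against WT and in GFP against WT, in place of 1, 4 and 2; member transcripts called in usage were 2, 0 and 0, in place of 2, 2 and 0. A crossed block, chosen after seeing the data, gave 2, 5 and 2 members. Leaving out 1 library gave 0 to 2 members against GFP, 1 to 5 against WT and 0 to 4 in GFP against WT, where the counts over all genes moved too (679 to 4304, 1428 to 6155 and 0 to 2770), and 2 to 4, 0 to 2 and 0 to 1 transcripts. Members called against GFP were 2 with quantile normalisation, 0 without a filter and 2 with summed TPM. Those against WT were 1 without a filter and 1 with summed TPM. Those in GFP against WT were 1 with quantile normalisation, 0 without a filter, 1 with edgeR and 0 with summed TPM. Over all genes, in the order against GFP, against WT and GFP against WT, 950, 2327 and 0 of 30989 were called without a filter. With summed TPM these were 989, 1644 and 0 of 14296. With quantile normalisation they were 2841, 3958 and 327 of 14292, and with edgeR 2848, 4157 and 474. Where 0 genes were called, the member count could only be 0. Transcripts called against GFP were 0 at a mean TPM of at least 5 and 1 by shares. Those against WT were 0 with a pseudocount of 0.1, 0 at a mean TPM of at least 5 and 0 by shares, and in GFP against WT 2 were called with a pseudocount of 0.1. The cause of these shifts was not tested.

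Reversed log2 changes, with the range over leaving out 1 library where that reversed them, were as follows. Against GFP, DNMT1 had 0.077 with quantile normalisation and 0.39 with summed TPM; leaving out 1 library gave -0.099 to 0.077 for DNMT1, -0.0082 to 0.18 for DNMT3B and -0.20 to 0.0036 for TDG. Against WT, DNMT1 had 0.092 with quantile normalisation, 0.0046 with edgeR and 0.0078 with DESeq2; leaving out 1 library gave -0.040 to 0.023 for DNMT1, -0.062 to 0.10 for UHRF2 and -0.021 to 0.023 for DNMT3A. In GFP against WT, summed TPM gave -0.55 for DNMT1 and -1.37 for UHRF1; leaving out 1 library gave -0.085 to 0.090 for DNMT1, -0.15 to 0.20 for UHRF1 and -0.15 to 0.018 for TET1. No member had fewer than 350 reads in a library.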

Other observations

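Some germline genes are known to be silenced by promoter methylation in somatic cells. Of 20 such genes, 17 were too low to be tested, with normalised counts of at most 14.3 in any library. Of these, 4 had 0 reads in all 6 libraries, DAZL, TEX101, MAGEA1 and CTAG2, where a count of 0 allows up to 3 reads in each. The 3 tested genes were DPEP3, TDRKH and PIWIL1. PIWIL1, a PIWI protein that binds piRNAs, had 54.2 and 36.1 normalised counts in WT, 64.7 and 60.4 in GFP and, in RBMXL3, 112 and 99.4. It rose by 0.58 on the log2 scale against GFP (limma adjusted p = 0.0313) and by 0.92 against WT (adjusted p = 0.00221). DPEP3 had 811 and 960 in WT, 1552 and 1157 in GFP and, in RBMXL3, 1106 and 1140, and was called in GFP against WT (0.59, adjusted p = 0.0385) and in neither comparison of RBMXL3. Its RBMXL3 libraries also lay above both WT libraries. TDRKH was not called in any comparison and stayed between 1084 and 1393.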
